A study of Mus musculus with 4 samples.

Results

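Most of the genes described here encode parts of the machinery that starts transcription by RNA polymerase II. The measurement is where the DNA-binding protein CTCF sat along all these genes in cultured mouse neurons. The members were chosen by symbol among protein-coding genes (RefSeq, GRCm38.p6): TAF genes, genes of the general factors TFIIA, TFIIB, TFIIE, TFIIF and TFIIH, Mediator genes and RNA polymerase II genes. The last group holds the subunit genes and Polr2m, whose product is a protein associated with the polymerase. The TAF symbols also take in genes with other roles. Taf1a, Taf1b, Taf1c and Taf1d encode polymerase I factors, Taf15 an RNA-binding protein, and Taf5l and Taf6l SAGA subunits. There were 80 members among 21770 protein-coding genes, namely 24 TAF genes, 13 general factor genes, 30 Mediator genes and 13 polymerase genes. All were compared as these 4 groups.

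The data came from chromatin immunoprecipitation and sequencing of CTCF in wild-type primary cortical neurons of embryonic day 16 Swiss-Webster mice, kept for 13 days in culture. There were 2 CTCF immunoprecipitations, which the protocol calls biological replicates, and 2 inputs. The treatment field says none for all 4 libraries, although the shared culture text describes an exposure to etoposide, a topoisomerase II poison. The values used here are 1 joint list of 33820 peaks with an irreproducible discovery rate (IDR), a measure of agreement between replicates, of 0.05 or less. Each peak has a −log10 p per replicate column, and the joint strength used below is their sum, as the authors deposited it (median 166). These values grow with sequencing depth, which is unknown here. Expression is not in the list, so the neuronal label was not checked against markers.

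Transcription by RNA polymerase II begins when TFIID, made of the TATA-binding protein and a set of TAF proteins, settles on a promoter. TFIIA and TFIIB then join, the polymerase arrives with TFIIF, and TFIIE and TFIIH open the DNA. Mediator, a large complex with a head, a middle, a tail and a detachable kinase module, carries signals from factors bound at enhancers to the polymerase. CTCF, with cohesin, holds chromatin loops in place and is often found near promoters.

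A gene was counted as having an end peak when a summit lay within 1 kb of either end of the gene. By this count 33 of the 80 genes (41.2%) had one, against 6349 of all 21770 protein-coding genes (29.2%). The groups differed in their shares. Among TAF genes 14 of 24 had an end peak (58.3%), among Mediator genes 12 of 30 (40.0%), among polymerase genes 4 of 13 (30.8%) and among general factor genes 3 of 13 (23.1%). With a single condition and 1 joint list no test over samples is possible, and the genes were chosen with results of this list known, so shares are descriptions and no p-value is given. The share of polymerase genes was 1.6 points above that of all genes in windows of 1 kb, while in windows of 5 kb it was 69.2%, against 51.3%. That of general factor genes rested on 3 genes.

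The remaining 47 genes were accounted for as follows. Another 14 had no end peak but a summit deeper inside the gene, 14 had one only outside within 10 kb, and 19 had none in that reach. Counting any summit at an end, inside or within 10 kb, 61 of 80 genes (76.2%) had one, against 66.6% of all protein-coding genes. A summit inside the gene and over 1 kb from both ends was found in 27 of 80 (33.8%), against 35.5% of all.

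**Figure D1:**
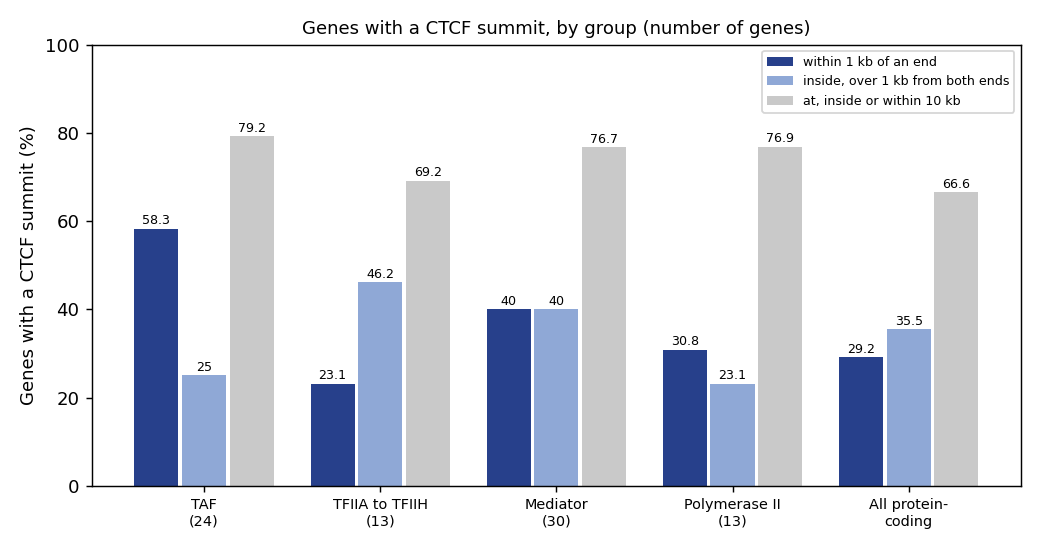
Bars give the percent of genes with a CTCF summit within 1 kb of either gene end, deeper inside the gene, or anywhere at, inside or within 10 kb, for the 4 groups and for all protein-coding genes. TAF genes have the tallest bar for ends (58.3%) and general factor genes the shortest (23.1%), beside 29.2% for all protein-coding genes.

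The stretches of promoter DNA under the end peaks are shown first, since they let the strength of a peak be read beside its sequence. RefSeq promoter windows (250 bases before to 50 after each listed start, GRCm38.p6) were found for 69 of the 80 genes, and 8 of these genes had a summit inside such a window: Polr2j, Med4, Polr2c, Taf1c, Med18, Taf10, Gtf2f1 and Med27. Below are 5 of them, the 4 strongest and Gtf2f1, up to 60 bases to each side of the summit and before the listed start of the window, 5′ to 3′ along the gene. For Gtf2f1 that is an inner start, 110 bp after the summit, so its stretch runs past the outermost start. Capitals mark AGNNGGC (N is any base, searched on both strands), the last letters of the 12-letter form of the CTCF motif given below.
Polr2j, chr5:136116541-136116661, plus strand: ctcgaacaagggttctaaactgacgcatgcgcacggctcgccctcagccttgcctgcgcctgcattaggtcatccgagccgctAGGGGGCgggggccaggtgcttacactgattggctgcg
Med4, chr14:73509855-73509975, plus strand: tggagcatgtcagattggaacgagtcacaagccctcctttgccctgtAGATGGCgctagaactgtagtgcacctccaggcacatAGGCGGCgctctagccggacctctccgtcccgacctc
Polr2c, chr8:94857380-94857449, plus strand: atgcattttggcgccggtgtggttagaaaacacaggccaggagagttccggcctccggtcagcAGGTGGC
Taf1c, chr8:119605244-119605364, minus strand: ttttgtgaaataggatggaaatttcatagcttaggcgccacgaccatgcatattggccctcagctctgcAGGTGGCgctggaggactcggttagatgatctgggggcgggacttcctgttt
Gtf2f1, chr17:57011338-57011458, minus strand: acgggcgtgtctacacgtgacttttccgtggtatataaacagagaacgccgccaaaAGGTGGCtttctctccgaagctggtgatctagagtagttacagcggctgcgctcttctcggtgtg

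The 5 stretches shown are those of the 8 that held a match, and the 7 letters were chosen after the sequences were seen. In these 5 the capitals run in the direction of the gene. Because of that choice the direction is a description only, and it was not counted over other windows. The stretches of the other 3 genes, Med18, Taf10 and Med27, cut in the same way and not shown, held 0 matches. The middle of the nearest match stood 26 bp after the summit at Polr2j, 10 bp before it at Med4, 6 bp after it at Polr2c, 12 bp after it at Taf1c and 1 bp before it at Gtf2f1. The 7 letters alone are common: they were in all 8 member windows with a summit, in 84.9% of the 1640 windows with a summit among all protein-coding genes, and in 63.9% of all 21262 windows. A longer form of 12 letters, CC followed by 3 free letters, then AG, 2 free letters and GGC, was found at Polr2j, Med4 and Gtf2f1, that is in 3 of the 8 windows with a summit, and in 11 of the 76 member windows without one. Among all protein-coding genes it was in 33.5% of windows with a summit and in 9.88% of all windows. A stricter form, with A right after the opening CC, occurred in 1 member window, that of Gtf2f1, and in 2.34% of all windows. Gtf2f1 thus carried the stricter match under the weakest of these 5 peaks (40.8), whereas Polr2c and Taf1c had peaks of 972 and 586 without a match of 12 letters in these stretches. The windows with a summit held a median of 53.8% G and C in the 8 member genes, against 64.0% in all such windows.

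Among the subunits of the polymerase, the strongest end peaks were those of Polr2j and Polr2c. Their products, known as RPB11 and RPB3, pair with each other early in the assembly of the enzyme. At Polr2j (chromosome 5, 136116691 to 136122947) the peak had a joint strength of 1494, with −log10 p of 727 in the first and 766 in the second replicate column, and its summit lay 90 bp before the start. This was above 99.5% of peaks in the list, and the strongest end peak of the 80 genes. At Polr2c (chromosome 8, 94857450 to 94864242) the start peak reached 972, with 444 and 528 in the columns, 10 bp before the start. A second peak of 46.5 stood 140 bp past its finish, near the end of the adaptor gene Dok4, and another of 399 inside the gene. The gene is 6793 bp long, and 1 of the 3 summits was inside it.

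Polr2h and Polr2i made up the rest of the polymerase genes with an end peak. Polr2h encodes a small subunit that polymerases I, II and III share. Its peak of 631, with 339 and 292 in the columns, lay 272 bp before its start, between this gene and the chloride channel gene Clcn2, and at 2923 bp was the widest end peak of the 80 genes. Polr2i is only 1314 bp long, so that 1 summit (strength 122, 35.4 and 86.9 in the columns) was within 1 kb of both its ends. Its neighbours Tbcb and Ovol3 have an end there too. Of the catalytic pair, Polr2a, which carries the largest subunit, had no end peak but a summit 3727 bp into the gene (183) and weaker ones of 54.2 and 49.8 outside. Polr2b had a strong peak of 859 at 5331 bp past its finish.

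Of the 5 genes whose subunits are shared with polymerases I and III, all had a summit inside or within 10 kb. Only 1, Polr2h, had it within 1 kb of an end (20.0%). Among all protein-coding genes these shares were 66.6% and 29.2%. Polr2e had its nearest at 1795 bp (157), Polr2k at 2635 bp (505) and Polr2l at 3082 bp (88.3), with a stronger one of 506 at 5747 bp. Polr2f had a weak summit 1487 bp before its start (85.9) and a strong one inside (435). Polr2d, Polr2g and Polr2m had no summit within 10 kb, and their nearest were 22.2, 18.4 and 12.1 kb away.

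**Figure D2:**
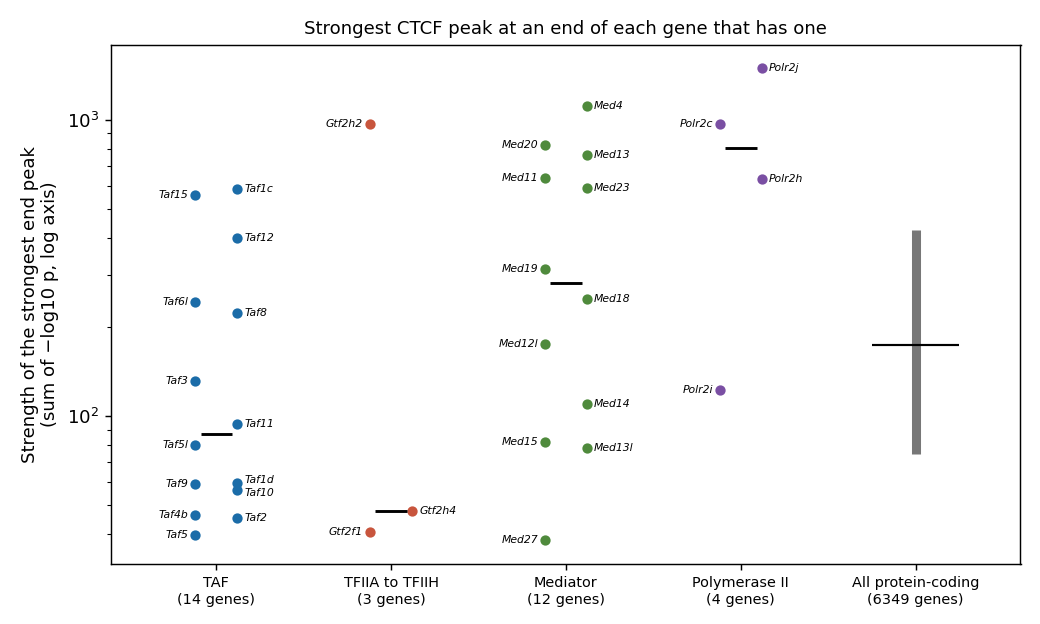
Each point is the strongest CTCF peak within 1 kb of an end of 1 gene, by group, on a log axis of joint strength; short lines are medians, and the grey bar spans the lower to the upper quartile of all 6349 protein-coding genes with an end peak. Polymerase genes have the highest median (801, 4 genes), and most TAF genes lie below the median of all genes (174).

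Of the general factor genes, 3 had an end peak, with strengths far apart. Gtf2h2, which encodes a core subunit of TFIIH, had a peak of 970 (283 and 688 in the columns), 57 bp before its start on chromosome 13 (gene 100460218 to 100492609). Gtf2h4, another TFIIH subunit, had one of 47.7 at its finish, beside the tRNA synthetase gene Vars2. Gtf2f1, the larger subunit of TFIIF, had 1 of 40.8, with 21.0 and 19.8 in the columns, 4 bp before the outermost start. These weak peaks stood above 7.9% and 3.6% of the list.

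A summit inside was found in 6 of 13 general factor genes (46.2%), against 35.5% of all protein-coding genes, and 5 of these had no end peak: Gtf2a2, Gtf2b, Gtf2e2, Gtf2f2 and Gtf2h1. Gtf2b, which encodes the whole of TFIIB, the factor that sets the start site, had a single weak summit (49.6) in the middle of its 18360 bp. Gtf2f2, of 113.94 kb, held 2 of 277 and 210. Gtf2e2 had 2 of nearly equal strength, 103 and 102, while the gene of its TFIIE partner, Gtf2e1, lay 143 kb from the nearest summit, the longest such distance among the 80. The TFIIA gene Gtf2a1 and its relative Gtf2a1l were 50.4 and 12.3 kb from one, and Gtf2h5, the smallest TFIIH subunit, 12.6 kb. Gtf2h3 had 1 outside its finish at 4927 bp (132).

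TAF genes had the highest share with an end peak of the 4 groups in windows of 1 kb, and most of these peaks were weak. The median of their strongest end peaks was 87.2 over 14 genes, against 174 over all 6349 protein-coding genes with one, and 9 of 14 were below the list's median. Counting only peaks above that median, 5 of 24 TAF genes (20.8%) had one, against 14.9% of all protein-coding genes. By that count Mediator (26.7%) and polymerase genes (23.1%) came before TAF genes, as they also did with windows of 5 kb. The 14 were Taf1c, Taf15, Taf12, Taf6l, Taf8, Taf3, Taf11, Taf5l, Taf1d, Taf9, Taf10, Taf4b, Taf2 and Taf5.

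Both of the strongest belonged to TAF genes that do not encode TFIID subunits. Taf1c encodes a subunit of the selectivity factor that brings polymerase I to ribosomal DNA. Its peak of 586 (123 and 463 in the columns) lay 98 bp before its start on chromosome 8 (119597974 to 119605206). Of the other polymerase I factors, Taf1d had a peak of 59.4 shared with the end of 4931406C07Rik, and Taf1a and Taf1b had none within 10 kb. Taf15 encodes an RNA-binding protein, and had 557 (152 and 404 in the columns), 380 bp before its outermost start. The SAGA subunit genes Taf6l and Taf5l, named after their TFIID relatives, had 243 and 80.2. That of Taf6l was at its finish, where the gene Tmem179b has an end too.

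Among the 13 genes of TFIID subunits, 8 had an end peak (61.5%), against 29.2% of all protein-coding genes. The peaks ranged from 39.6 at Taf5 to 400 at Taf12. Taf12 encodes a histone-fold partner of TAF4, and its peak (104 and 296 in the columns) was at the finish of the gene. Taf8 had a peak at either end, of 223 past its finish and 63.6 before its start. Stronger ones of 632 and 500 stood 9012 and 9581 bp away. Taf3, whose product reads trimethylated histone H3 at promoters, had 132 at its start, 727 bp into the gene, and 277 deeper inside. At Taf11, 94.3 stood inside its start, within 1 kb of an end of Anks1. A second summit of 138, classed as inside, was 83 bp from another listed start of Taf11. Taf10, Taf9, Taf2 and Taf5 had weak peaks of 56.5, 59.0, 45.3 and 39.6. Taf1, the scaffold of the complex, and Taf7, which binds TAF1, had no summit within 10 kb (nearest at 11.7 and 11.4 kb). Taf4 had 2 inside (338 and 57.0) and no end peak, and Taf13 and Taf6 had only outside summits, at 8168 and 7586 bp.

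The end peaks of Mediator genes ranged from 38.1 at Med27 to 1112 at Med4, with a median of 281 over 12 genes. In order of strength they were Med4, Med20, Med13, Med11, Med23, Med19, Med18, Med12l, Med14, Med15, Med13l and Med27. A strength above 500 was reached by 5 of them, that is 16.7% of the 30 genes, against 6.08% of all protein-coding genes. All 11 with a known strand had the peak at the start, that is 42.3% of the 26 Mediator genes with a strand. At the finish it was 0 of 26. Among all protein-coding genes with a strand the shares were 24.3% and 6.57%. Starts thus prevailed there too, with 4259 genes against 1150.

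The modules hold few genes each, so their shares are coarse. By module, the head had 4 of 9 genes with an end peak (44.4%), against 29.2% of all protein-coding genes. Med20, whose product pairs with MED18 in the head, had 822 (174 and 647 in the columns), 254 bp before its start on chromosome 17, beside Bysl and the predicted gene Gm20517, which starts at the same base. Med18 itself had 248, with columns of 26.2 and 222, the largest ratio between columns among the 36 end peaks (3.08 on the log2 scale). Med11 had 637 (273 and 364 in the columns), 338 bp into a gene of 1815 bp, and Med19 had 314, between it and Tmx2. Med22, which pairs with MED11 in the head, had no end peak by the window, since its summit of 260 lay 1121 bp from an end, and another of 420 lay further in. Med6, Med8, Med17 and Med30 had no summit within 10 kb.

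Of the 8 middle genes only Med4 had an end peak (12.5%), and none had a summit inside. Among all protein-coding genes these shares were 29.2% and 35.5%. The Med4 peak (262 and 850 in the columns) lay 134 bp before its start, and a still stronger one of 1207 (619 and 588 in the columns) stood 6380 bp past its finish. Med9 had 648 at 2122 bp past its finish, and Med31 had 408 and 424 at 5877 and 9424 bp before its start. Med7 had 269 at 5532 bp. Med1, the subunit that binds nuclear receptors, had a weak summit of 47.9 at 9928 bp, at the edge of the window. Med10, Med21 and Med26 had none within 10 kb.

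All 5 tail genes had a summit within 10 kb, and 4 of them one inside. The shares over all protein-coding genes were 66.6% and 35.5%. Med24 had no end peak but 3 inside, among them one of 944 (409 and 536 in the columns), the strongest inside peak of the 80 genes. Med23 had 587 (176 and 411 in the columns) at its lower-coordinate end and 2 weaker ones inside. Med16 had 641 outside at 1809 bp and Med25 had 881 at 3498 bp before its start. Med15 had a weak start peak of 81.8. Med14, the backbone that holds the head, middle and tail together, had 110. Of the genes placed in the head or the tail, Med27 had 38.1, the weakest end peak of the 80 genes, Med29 had 316 inside and Med28 had 291 outside at 5706 bp.

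The kinase module, which docks on Mediator reversibly, had 3 of 4 genes with an end peak, against 29.2% of all protein-coding genes. Of all protein-coding genes above 100 kb, the length class of Med12l and Med13l, 43.2% had one. Med12l, of 313.03 kb, had 7 summits inside, and Med13l, of 205.11 kb, also 7, the highest counts among the 80. Med24 and Taf4b followed with 3 each. Med12l and Med13l are also the longest of the 80 genes. Per 100 kb of gene, the module had 2.37 inside summits, against 2.1 in all Mediator genes and 1.46 in all protein-coding genes. The tail genes had more, 4.11 per 100 kb. In Med12l the inside peaks ranged from 73.5 to 342, around its start peak of 175. In Med13l all 7 inside peaks, from 158 to 360, were stronger than both start peaks, 78.0 and 50.9, which flanked its start. The shorter Med12 had 1 inside (182) and none at an end. Med13, of 90.56 kb, was the reverse, with a single peak of 764 (295 and 469 in the columns), 868 bp before its start. Cdk8, Cdk19 and Ccnc complete the module and were counted in a list of their own below.

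**Figure D3:**
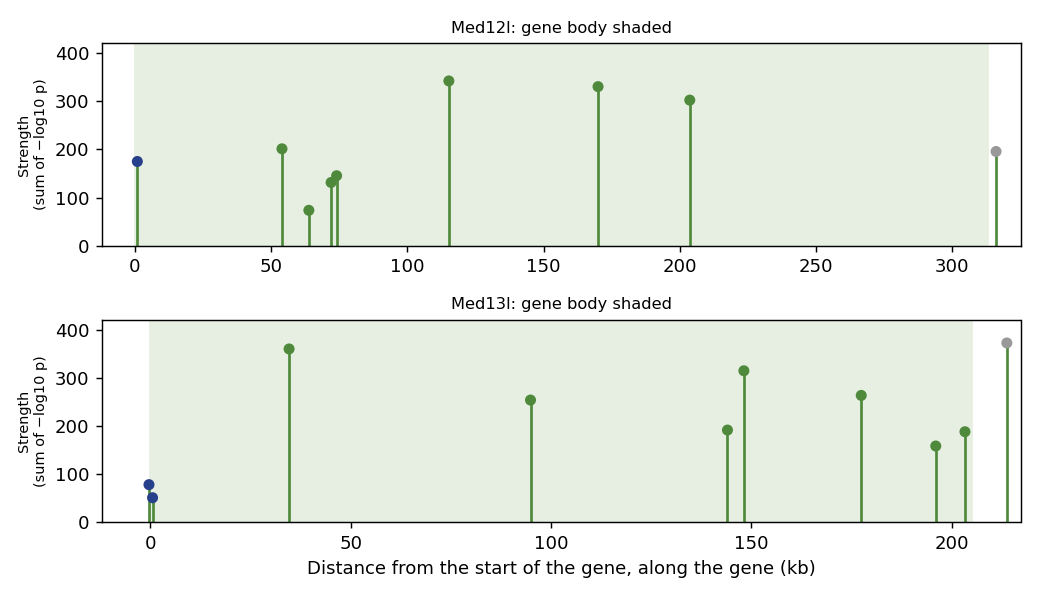
Stems give the joint strength of every CTCF peak at Med12l and Med13l against the distance of its summit from the start of the gene, with the gene body shaded; blue points are within 1 kb of an end, green ones inside and grey ones outside. In Med13l the 7 inside peaks stand above both peaks at the start.

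The strand was known for 69 of the 80 genes, so that starts and finishes could be told apart there. A summit within 1 kb of the start was found in 27 of 69 (39.1%), against 24.3% of 17491 protein-coding genes with a strand. At the finish the count was 6 of 69 (8.7%), against 6.57%. Both ends were counted for 3 genes, Polr2c, Polr2i and Taf8. Of 27 end peaks that lay at a start alone, 17 had the summit upstream of it and 10 inside the gene. Within 250 bp of the end were 15 of all 36 end peaks. These positions were not counted over all protein-coding genes and describe the members only.

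**Figure D4:**
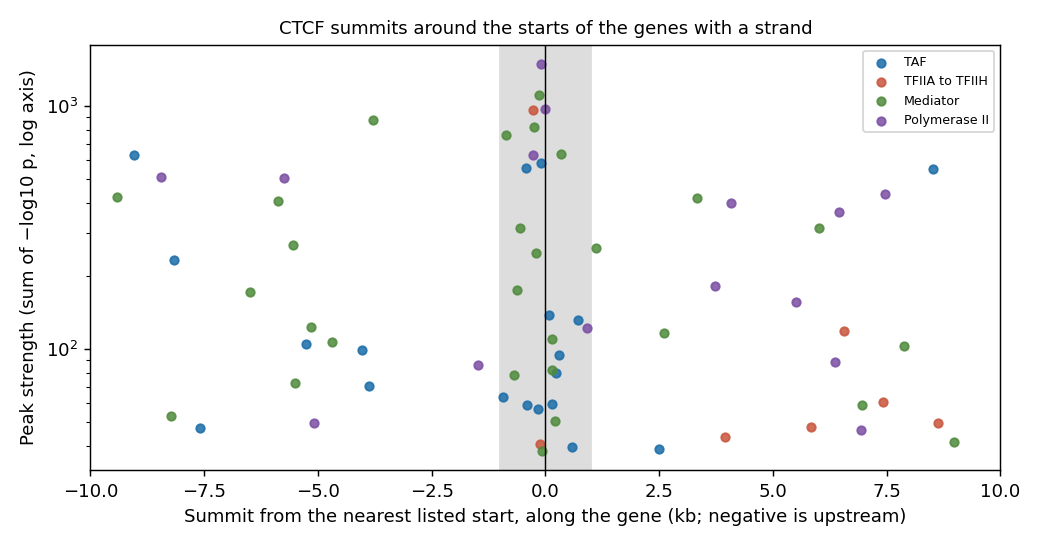
Each point is a CTCF summit at 1 gene with a known strand, by its distance in kb along the gene from the nearest listed start (negative is upstream) and its joint strength on a log axis; the grey band is 1 kb to each side. The 5 strongest points in the band, Polr2j, Med4, Polr2c, Gtf2h2 and Med20, lie before the start.

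Values near the window's limits were as follows. Just inside 1 kb were Med13 at 868 bp, Taf8 at 908 bp, Polr2i at 913 bp from its start and Med12l at 946 bp. Just outside were Med22 at 1121 bp, Gtf2h4 (a second summit) at 1415 bp, Med29 at 1427 bp and Polr2f at 1487 bp.

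Relatives of similar name were set side by side. Taf4 had no end peak and 2 summits inside, while Taf4b had a weak end peak of 46.3 and 3 inside. Taf9 had 59.0 at its start, where Ak6 and Rad17 have an end too, and Taf9b none nearer than 7793 bp. Taf7 and Taf7l2 had none within 10 kb, and Taf7l had 1 weak summit inside (38.7). Med13 and Med13l both had start peaks, 764 and 78.0, whereas Med12 had none and Med12l had 175.

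Many of these genes lie end to end with a neighbour. For 37 of 80 (46.2%) an end of another protein-coding gene was within 1 kb of an end, against 24.8% of all protein-coding genes. An end peak was found in 18 of these 37 (48.6%) and in 15 of the other 43 (34.9%), against 39.6% and 25.7% among all genes with and without such a neighbour. The shares did not go one way in all groups, though they rest on few genes. With and without a close neighbour, an end peak was found in 8 of 9 (88.9%) and 6 of 15 (40.0%) TAF genes. Among polymerase genes it was 4 of 8 (50.0%) and 0 of 5 (0.0%). Among Mediator genes it was 5 of 14 (35.7%) and 7 of 16 (43.8%). Among general factor genes it was 1 of 6 (16.7%) and 2 of 7 (28.6%), too few to give a direction. In 12 of the 33 genes the bound end itself was shared, and there a peak cannot be given to 1 of the genes.

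The shares also differed by gene length. Of 31 members below 10 kb 14 had an end peak (45.2%), against 21.5% of all protein-coding genes below 10 kb. Between 10 and 30 kb it was 7 of 27 (25.9%), against 29.6%, and between 30 and 100 kb 7 of 16 (43.8%), against 33.7%. Of the 6 longest genes, 5 had one (Med12l, Med13l, Med27, Taf3 and Taf4b, but not Gtf2f2), against 43.2%, and all 6 held a summit inside, against 83.9% of all protein-coding genes of that length. Length and close neighbours were not separated here.

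The replicate columns were closer to each other at end peaks of these genes than at inside peaks. The log2 ratio of the second to the first column had a median of 0.39 over 36 end peaks and of 2.21 over 48 inside peaks. Peaks of all protein-coding genes had medians of 0.40 and 1.94. The first column was the higher one at 8 of 36 end peaks and at 1 of 48 inside peaks. That single inside peak was the one at Taf11 that lies 83 bp from a listed start (76.6 and 61.3 in the columns). The second column was higher at 77.8% of end and 97.9% of inside peaks, against 71.1% and 92.8% for all protein-coding genes. The columns cannot be tied to a labelled replicate, and library depth enters both, so which of the 2 is nearer to the occupancy was not tested.

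**Figure D5:**
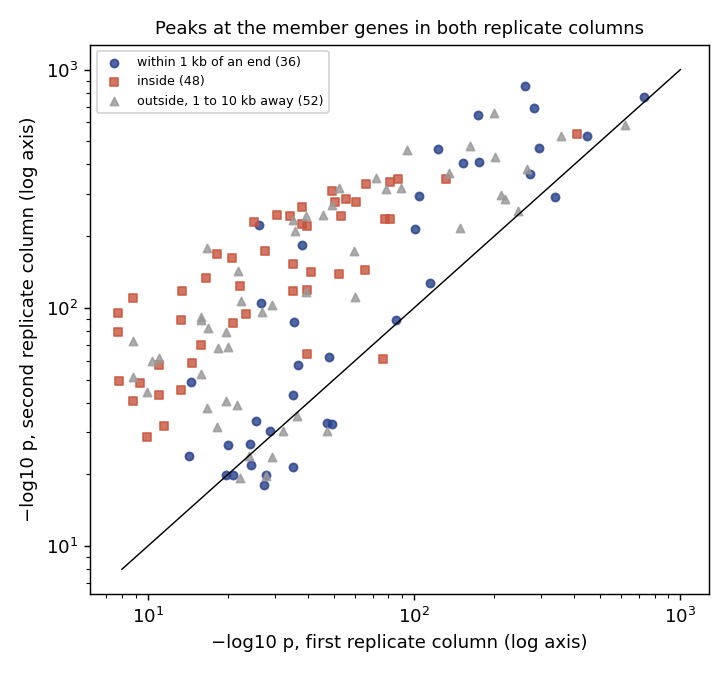
Each point is a CTCF peak at one of the 80 genes, with the −log10 p in the first replicate column across and in the second column up, both on log axes; the line marks equal values. Peaks within 1 kb of an end (36) scatter nearer to the line than the 48 inside peaks, of which 1 lies below it.

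Other genes of transcription were counted in the same way. Partners of these complexes whose symbols did not match had an end peak in 4 of 9 (44.4%), against 29.2% of all protein-coding genes. They were led by the kinase module genes Ccnc (259), Cdk19 (214) and Cdk8 (210). With these, 6 of the 7 kinase module genes had one, a count that joins members with this other list. Of the 4 members among them, Med12l and Med13l are above 100 kb, while Med13 (90.56 kb) and Med12 (24.84 kb) are below it. The lengths of Cdk8, Cdk19 and Ccnc were not compared. Of all protein-coding genes above 100 kb, 43.2% had an end peak. Module and length were not separated here. Regulators and relatives of the TATA-binding protein had an end peak in 2 of 5 (40.0%), Dr1 and Btaf1 (54.8). Genes of pausing and elongation had 13 of 29 (44.8%), led by the pause-release kinase gene Cdk9 (969), Cdc73 (539) and Hexim1 (495). Integrator, which cleaves nascent RNA, had 10 of 14 (71.4%), led by Ints7 (1649), Ints14 (1140) and Ints1 (794). SAGA genes beyond the TAF genes had 6 of 14 (42.9%), led by the large scaffold gene Trrap (2015), Tada2b (429) and Usp22 (203). Genes of polymerases I and III had 5 of 15 (33.3%), led by Polr3e (1327), Polr3a (742) and Polr3g (106). The share of all 80 members, 41.2%, lay within the range of these lists.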

How the data were processed

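CTCF was profiled in 2 immunoprecipitations and 2 inputs. The submitters' processing notes name MACS2, BWA, SAMtools, Trimmomatic and FastQC, and GRCm38.p6 and mm10 as builds. For versions, thresholds and the use of the inputs the entry is: not given in the sources used here. Their deposited table, of 20 columns and no header, is laid out like the output of an IDR run on a pair of replicates. The authors' −log10 p per replicate and their sum, the joint strength, are used as deposited, to describe and rank peaks. The deposited score, a rescaled IDR, was not used. Of its per-replicate columns 6 (positions of the single peaks) were not used. Depth is unknown, and the inputs have no values in the table.

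The summit was column 2 plus column 10, so distances can be off by 1 base. Genes came from the RefSeq table of GRCm38.p6. The 113 protein-coding genes with scaffold positions were left out. Strand and listed starts came from the RefSeq promoter table (17491 protein-coding genes). 11 members are not in it, and their strand was not used here. All symbols of the other lists were found.

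The members, lists and alternatives were chosen with earlier results of these data known. The text may name every member, neighbours at a bound end and the 3 strongest of each other list. The 7-letter motif was added after the sequences were seen. Alternatives were other windows, any base of a peak, stricter peaks, each replicate column and unshared ends. Code was tested on simulated data, where 200 of 200 planted summits were placed correctly among 21770 genes. Tables were made with pandas 2.3.3 and numpy 2.4.6 in Python 3.11.15, and figures with matplotlib 3.10.9.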

Additional observations from a re-analysis of the deposited data

How the results depend on the processing

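Of 96 values recomputed under alternatives, 2 differences turned sign, and 20 counts or differences moved beyond their limit. The limit was 1.5 times for a count. For a difference, it was the distance from the group's share in the main setting to either bound of its exact 95% binomial interval. That interval is wide in groups this small. The excess of all members over all genes, 12.1 points, was 5.7 with unshared ends. All members with an end peak fell to 17 (21.2%, against 14.9% of all genes) among peaks above the median strength and to 15 (18.8%, against 13.1%) over the second column's median. TAF genes fell to 5 among peaks above the median strength, a difference to all genes of 5.9 points in place of 29.2. Above the median of the first column they fell to 8, above that of the second to 4 (3.6 points), and with unshared ends to 8 of 22 (12.3 points). With windows of 5 kb their difference was 11.2 points, and there and above the median strength or the second column's median the share of TAF genes was below those of Mediator and polymerase genes. General factor genes rose to 6 with windows of 5 kb and fell to 1 above the median strength, at an IDR of at most 0.01, and above the median of either column. Their difference to all genes was 2.7 points with windows of 500 bp, in place of −6.1, and −15.6 at an IDR of at most 0.01. Mediator genes rose to 19 with windows of 5 kb and fell to 7 above the median of the second column. Polymerase genes rose to 9 with windows of 5 kb and fell to 2 of 10 with unshared ends, where their difference was −4.0 points, in place of 1.6. Under the other settings it was 7.5 points or more. Members with a summit inside numbered 14, 13 and 14, in place of 27, above the median of the joint strength, the first and the second column. Their shares there were 17.5%, 16.2% and 17.5%, against 22.2%, 21.7% and 22.3% of all genes. In the main setting the shares were nearer, 33.8% against 35.5%, as they were with any base of a peak, 32.5% against 32.9%. At an IDR of at most 0.01 the share of members was also below that of all genes (30.4%). Stricter peak sets and wider windows change counts by construction. For the signs that turned the cause was not tested.

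No paired analysis was possible because the joint list holds no input values and does not tie its columns to labelled replicates; leaving out a replicate was likewise not run, and each column alone took its place. Depth is unknown, so a weak peak in one column can come from depth.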

Other observations

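Some of these genes are neighbours on a chromosome, and 7 pairs were less than 250 kb apart. Taf6l and Polr2g, 6.71 kb apart on chromosome 19, had 0 summits between them. Med17 and Taf1d on chromosome 9 had 1 between them. Gtf2h2 and Taf9 on chromosome 13 had 2 over 159 kb, and Taf12 and Med18 on chromosome 4 had 5 over 165 kb. Taf8 and Med20 on chromosome 17 had 6 over 109 kb, Med12 and Taf1 on X had 8 over 229 kb, and Med16 and Polr2e on chromosome 10 had 9 over 127 kb.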
